A study of Mus musculus with 6 samples.

Results

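Genes of the Notch pathway were followed in monocyte preparations from the mandible and the femur. The 10 members were taken by gene name from the 57010 genes in the count table, and they were chosen with earlier results of these data known. They comprise the receptors Notch1, Notch2 and Notch4, the ligands Dll1, Dll4, Jag1 and Jag2, and the target genes Hes1, Hey1 and Heyl. RNA was sequenced in 6 libraries of monocytes from bone marrow of C57BL/6 mice (C57BL/6J in the study's methods) that were 1 year old, 3 of them femur-derived (libraries S13, S15 and S18) and 3 mandibular-derived (libraries S16, S19 and S23). In all of them the marrow cells went through a kit for negative selection, which holds back other cells and lets monocytes pass, and the labels name no treatment and no engineered allele. The study used male and female mice, and the sources used here name no sex, batch or animal for any library, nor whether animals were pooled. The p-values therefore measure only the spread between these libraries, which may be technical.

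Notch receptors are membrane proteins that are activated by Delta-like and Jagged ligands on a neighbouring cell. Ligand binding lets proteases cut the receptor, and the freed intracellular part enters the nucleus, where it joins the DNA-binding protein RBPJ and switches on target genes such as those of the Hes and Hey families. In bone marrow the pathway is known for its part in the fate of blood cells and of bone-forming cells, and Notch2 is known for its part in the development of some monocytes.

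The libraries held 15718782 to 25371474 counts on genes, and a count of 0 leaves room for 3 counts, or 0.118 to 0.191 CPM (counts relative to the library's total) before scaling, a bound for counting error alone. Femur library S15 stood apart, with a count for 40494 genes against 17481 to 23513 in the other libraries. Mandible library S23 was the only one with high Xist, a transcript of female cells, at 1441 CPM. Xist was at most 0.553 CPM in the other libraries. Y-linked counts were 0 in S23, against 2772 to 4590 in each of the others. By these values S23 looked female and every other library male, so sex was not balanced between the sites. The part of sex in the differences between the sites was not tested. Levels are given as CPM scaled by TMM, a correction for library composition. Tests used edgeR's quasi-likelihood method and Benjamini-Hochberg adjustment, and genes were called at an adjusted p under 0.05 and a change of at least 2-fold, with the femur as the baseline.

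Jag1 and Jag2 were higher in the mandible libraries, by 3.99-fold and 16.3-fold, and were the only members called. These libraries also held markers of cells other than monocytes, given below, so the difference is not one shown for monocytes alone. Of the 10 genes, 9 passed the filter on low counts and 2 were called higher, beside 3.88% of the 18114 tested genes, and 0 were called lower, beside 1.3%. At an unadjusted p under 0.05 there were 4 genes, namely Notch2, Jag1, Jag2 and Hey1, beside 16.4% of all tested genes. In 6 members every mandible library lay above every femur library, beside 12.7% of all tested genes, and in 0 members every mandible library lay below, beside 11.5%. Dll4 did not pass the filter, and Hey1 passed it only through its mandible libraries. Dll1 and Heyl each reached the filter's cutoff in 2 femur and 3 mandible libraries, so they would not have passed by their femur libraries alone. Dll1, Hey1 and Heyl are all among the 6 members without overlap. The counts given here therefore do not cover the members evenly.

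**Figure D1:**
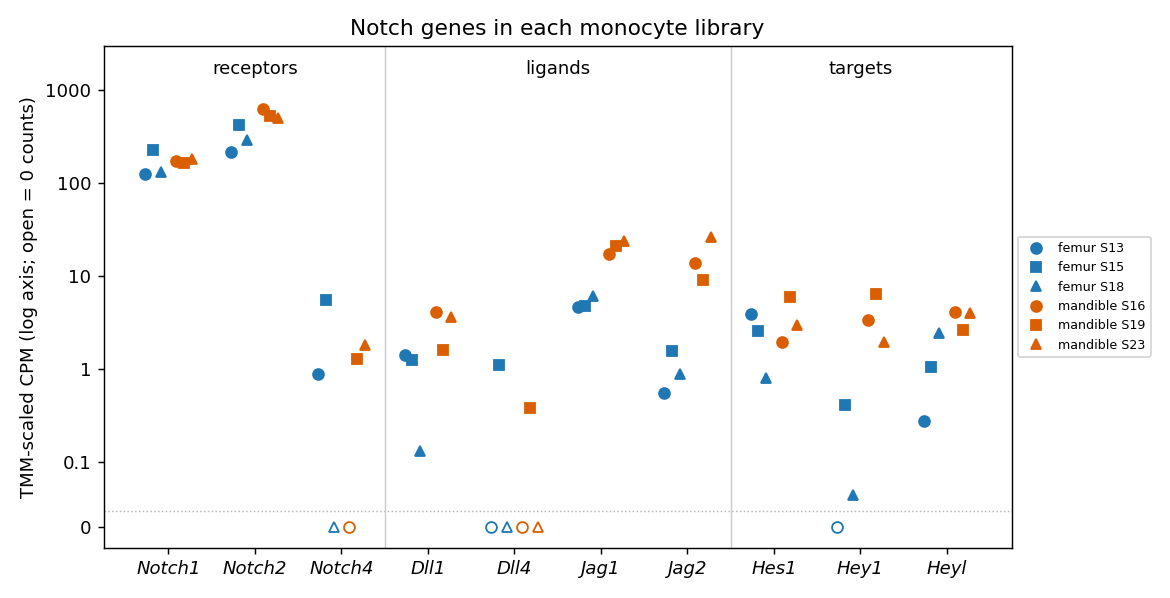
TMM-scaled CPM on a log axis of the 10 Notch genes in the 3 femur and 3 mandible libraries, 1 point for each library, with open points for a count of 0. Notch1 and Notch2 lie far above the other genes, and the mandible points of Jag1 and Jag2 lie above all their femur points.

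None of the receptors was called. Notch2 had a higher level in every mandible library than in any femur library, Notch1 overlapped between the sites, and Notch4 was low. Notch2, on chromosome 3 from 98013527 to 98150361 of the plus strand (GRCm38), was measured at 218, 422 and 293 CPM in femur libraries S13, S15 and S18 and at 627, 528 and 505 CPM in mandible libraries S16, S19 and S23. The groups did not overlap, and S15 was the highest of the femur. The means were 311 ± 103 (SD, n = 3) and 553 ± 64.8 (SD, n = 3), with a log2 fold change of 0.83 ± 0.31 (SE) and an adjusted p of 0.19 by edgeR's quasi-likelihood test, so that the gene was not called. Without S15 the log2 fold change was 1.07 and the adjusted p 0.040, DESeq2 gave an adjusted p of 0.031 at less than 2-fold, and with a correction for gene length the log2 fold change was 0.30 with an adjusted p of 0.75. The genes Gm42819 and Gm42820 overlap Notch2 on the same strand, and how the authors' counting treated reads in such overlaps is not given in the sources used here.

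The window upstream of Notch2 is printed because it belongs to the receptor with the highest mandible level, and that of Jag1 because this ligand was called. Both were taken from RefSeq (GRCm38.p6), in which 7 of the 10 members matched a promoter, and run 5′ to 3′ up to the base before the start of the gene. Jag2 was called as well, but 0 bases of its window lay before the start of the gene as placed here, so none is printed. Its full window of 250 bases held GGGCGG, as did those of Notch1 and Dll4. The Notch2 window is chr3:98013288-98013526 on the plus strand, and capitals mark GGGCGG on either strand. The Jag1 window is chr2:137116645-137116770 on the minus strand and has no capitals.
Notch2: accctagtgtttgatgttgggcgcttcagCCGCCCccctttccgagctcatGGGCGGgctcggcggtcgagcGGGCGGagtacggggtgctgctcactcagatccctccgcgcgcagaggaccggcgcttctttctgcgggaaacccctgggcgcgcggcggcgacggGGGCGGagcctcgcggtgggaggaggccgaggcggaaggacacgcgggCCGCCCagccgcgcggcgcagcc
Jag1: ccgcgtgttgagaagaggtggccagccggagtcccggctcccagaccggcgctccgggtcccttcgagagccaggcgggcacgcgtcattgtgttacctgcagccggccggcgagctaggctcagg
The Notch2 window held 5 GC boxes (GGGCGG, or CCGCCC where it lies on the other strand), a motif found in 32.7% of the windows of 250 bases before 32851 gene starts, while the printed windows are shorter, at 239 and 126 bases. In the Jag1 window none of the 5 motifs searched on both strands was found. These were the GC box, the RBPJ core TGGGAA (21.6% of all windows), the TATA box TATAAA (12.4%), the AP-1 site TGANTCA (6.75%) and the E-box CACGTG (6.02%). GC content of the shorter printed windows was 74.1% for Notch2 and 70.6% for Jag1. Their full windows of 250 bases had 72.0% and 57.2%, against a median of 52.4% over all windows. A match is a description of letters and not a binding site.

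Notch1, on chromosome 2 from 26457903 to 26516663 of the minus strand, had 125, 226 and 132 CPM in femur libraries S13, S15 and S18 and 173, 165 and 183 CPM in mandible libraries S16, S19 and S23. The groups overlapped, since S15 was above all mandible libraries. The log2 fold change was 0.11 ± 0.29 (SE), with an adjusted p of 0.92 by edgeR's quasi-likelihood test, and with the length correction it was -0.53. Notch4, on chromosome 17 from 34564268 to 34588503 of the plus strand, had 16, 119 and 0 counts in the femur and 0, 27 and 32 counts in the mandible. Library S15 held most of the femur counts, and the log2 fold change of -1.03 ± 1.83 (SE), with an adjusted p of 0.88 by edgeR's quasi-likelihood test, was 1.19 without it.

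Among the 3 receptor members, without Notch3, Notch2 held a larger share in every mandible library than in any femur library. With CPM divided by the mean length of the coding transcripts, Notch2 took 45.3, 46.7 and 51.3% of the summed level in S13, S15 and S18, and 63.3, 60.2 and 56.6% in S16, S19 and S23. The difference of means was 12.2 percentage points, without overlap of the libraries, and the exact two-sided permutation test of 3 against 3 gave its smallest possible p, 0.1. It was 10.7 points with the longest coding transcript of each gene and 10.2 points with raw counts. Notch1 made up nearly all of the rest, with 51.8 ± 2.89% (SD, n = 3) in the femur and 39.8 ± 3.22% (SD, n = 3) in the mandible. On this scale Notch1 and Notch2 could not be ordered in the femur, where their ranges overlapped, whereas in the mandible Notch2 was above Notch1 in every library. The order in the femur turned with the choice of transcript length. The mean length for Notch1, 5000 bases, comes from 2 coding transcripts, the longest of 9488 bases. With the longest coding transcript, Notch2 took 61.0, 62.0 and 66.7% in femur libraries S13, S15 and S18, above Notch1 in each.

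Both Jagged ligands were called, and the Delta-like ligands were at a few CPM or less. Jag1, on chromosome 2 from 137081456 to 137116644 of the minus strand, is a ligand that marrow stromal and endothelial cells are known to present. It had 4.64, 4.75 and 6.18 CPM in femur libraries S13, S15 and S18 and 17.2, 20.98 and 24.0 CPM in mandible libraries S16, S19 and S23. Every mandible library was well above every femur library, and the libraries of each site lay close together. The log2 fold change was 1.995 ± 0.39 (SE), with an adjusted p of 0.012 by edgeR's quasi-likelihood test. The adjusted p was 0.060 without S13, 0.079 without S19 and 0.053 without S23, so that the call was lost, while the log2 fold change stayed between 1.82 and 2.15 when any 1 library was left out. Since these are bulk samples, more cells of a type and more RNA for each cell cannot be told apart, and this holds for every gene described here.

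Jag2, on chromosome 12 from 112907819 to 112929776 of the minus strand, showed the largest called difference of the members. It had 10, 34 and 20 counts in S13, S15 and S18 and 279, 191 and 461 counts in S16, S19 and S23, which are 0.552, 1.57 and 0.884 CPM against 14.0, 9.07 and 26.4 CPM. The lowest mandible library was above the highest femur library, and S23 was the highest of all. The log2 fold change was 4.03 ± 0.64 (SE), with an adjusted p of 0.0037 by edgeR's quasi-likelihood test, and it ranged from 3.46 to 4.46 when 1 library at a time was left out. Jag2 was called under every alternative that was run. The exact permutation test gave 0.1 for Jag1 and for Jag2.

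Dll1, on chromosome 17 from 15367354 to 15376872 of the minus strand, had 1.44, 1.24 and 0.133 CPM in femur libraries and 4.15, 1.61 and 3.60 CPM in mandible libraries. The groups did not overlap, but S19 lay close to the femur, and the log2 fold change of 1.73 ± 1.14 (SE) had an adjusted p of 0.54 by edgeR's quasi-likelihood test. Dll4, on chromosome 2 from 119325784 to 119335962 of the plus strand, had 24 counts in S15, 8 in S19 and 0 in the other 4 libraries, and was not tested. Gm14207 overlaps it on the opposite strand and had 24 counts in S15 as well. Without use of the strand, which the sources used here do not give, reads of these overlapping genes cannot be told apart.

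Jag2 held a larger share of the 4 ligands in every mandible library than in any femur library. Jag2 took 11.2, 23.8 and 20.6% of their summed CPM per kilobase in S13, S15 and S18 and 48.8, 40.3 and 60.3% in S16, S19 and S23, with no overlap. The difference of 31.3 percentage points had an exact permutation p of 0.1, and it was 26.5 points with the longest coding transcript. Jag1 took 53.9 ± 19.3% (SD, n = 3) in the femur and 36.2 ± 10.9% (SD, n = 3) in the mandible, with overlap. Summed over the 4 ligands, CPM was 6.63 to 8.66 in the femur against 32.0 to 53.9 in the mandible.

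**Figure D2:**
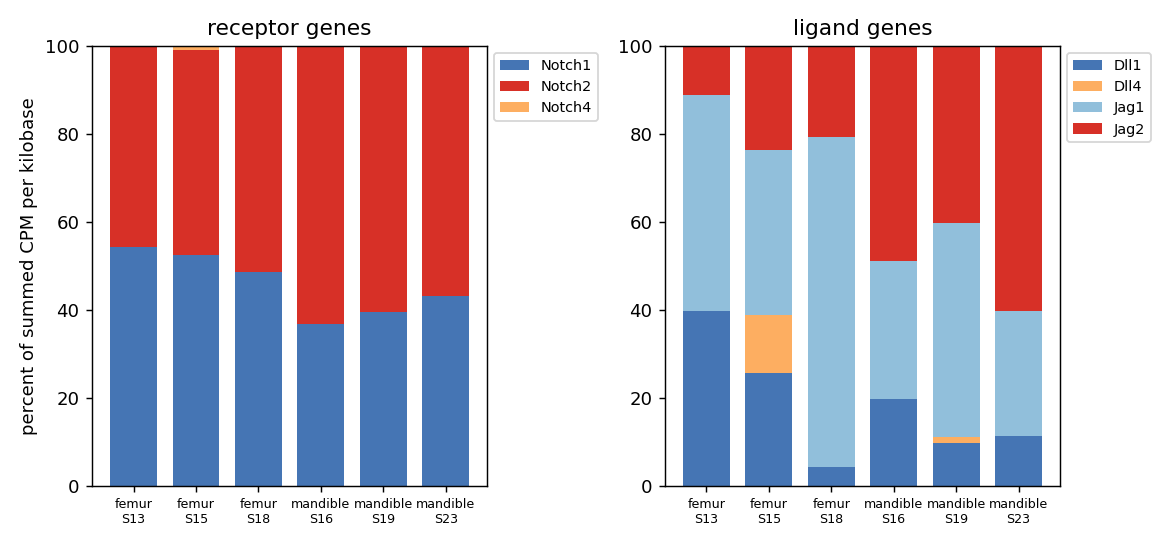
Percent of the summed CPM per kilobase taken by each receptor (left) and each ligand (right) in each of the 6 libraries. Notch2 takes 45.3 to 51.3% of the receptors in femur libraries and 56.6 to 63.3% in mandible libraries, and Jag2 takes 11.2 to 23.8% and 40.3 to 60.3% of the ligands.

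None of the target genes was called. Hey1, on chromosome 3 from 8663359 to 8667256 of the minus strand, encodes a transcriptional repressor that Notch signalling induces. It had 0, 9 and 1 counts in S13, S15 and S18 and 68, 134 and 34 counts in S16, S19 and S23. The mandible libraries were all above the femur libraries, in which most of the counts came from S15. The log2 fold change was 4.602 ± 1.46 (SE), with an adjusted p of 0.11 by edgeR's quasi-likelihood test, and the adjusted p was 0.0050 with DESeq2, 0.047 without the filter on low counts and 0.029 without S15. The log2 fold change was 6.99 without S15, which leaves 1 femur count, so that its size depends on the prior count, and 4.01 without S19. Hey1 passed the filter only because of the mandible libraries, so a gene of this kind had to differ to be tested.

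Heyl, a related repressor on chromosome 4 from 123233556 to 123249875 of the plus strand, had 0.276, 1.06 and 2.47 CPM in femur libraries and 4.10, 2.61 and 4.06 CPM in mandible libraries. The groups came close, at 2.47 CPM in S18 and 2.61 CPM in S19, and the log2 fold change of 1.49 ± 1.01 (SE) had an adjusted p of 0.55 by edgeR's quasi-likelihood test. Without S18 it was 2.42. Hes1, on chromosome 16 from 30064384 to 30067796 of the plus strand, is the repressor most often read as a Notch target. It had 3.92, 2.58 and 0.795 CPM in the femur and 1.95, 5.93 and 2.97 CPM in the mandible, with overlap. Its log2 fold change of 0.57 ± 0.89 (SE), with an adjusted p of 0.85 by the same test, was -0.03 without S19.

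**Figure D3:**
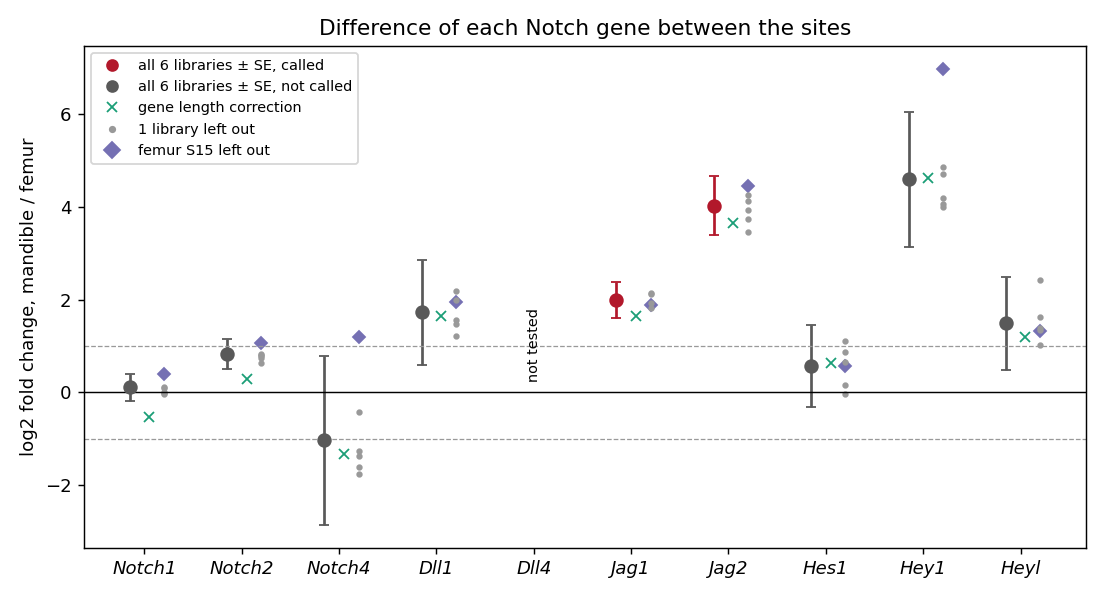
Log2 fold change of mandible against femur for each member, with its SE, beside the values with the length correction (crosses) and with 1 library left out (small points, diamonds for S15), and with dashed lines at 2-fold. Jag1 at 1.995 and Jag2 at 4.03 are the called genes, and Notch1, Notch4 and Hes1 change sign when a library is left out.

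Levels of different genes were compared per kilobase of transcript. In the femur, Notch1 at 32.2 ± 11.3 CPM per kilobase (SD, n = 3) and Notch2 at 29.6 ± 9.83 were followed by Hes1 at 1.66 ± 1.07 and Jag1 at 0.925 ± 0.154. Notch2 lay above Hes1, and Jag1 above Dll1, in all 3 libraries without overlap, and the other neighbours in the order overlapped. In the mandible the order began with Notch2 at 52.7 ± 6.17, Notch1 at 34.7 ± 1.80, Jag2 at 5.63 ± 3.05 and Jag1 at 3.69 ± 0.603. Notch2 and Notch1, Notch1 and Jag2, and Heyl and Notch4 did not overlap there. The order of Notch1 and Notch2 in the femur, and that of Jag1 and Jag2 in the mandible, turned with the choice of transcript length.

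The wider pathway showed no call. Of 57 further genes, chosen by role in the pathway, 49 were tested and 0 were called with edgeR, beside 5.18% of all tested genes, and 5 had an unadjusted p under 0.05, beside 16.4%. DESeq2 called 2 of them, Dlk1 and Maml2, beside 8.54% of all genes, and edgeR without S15 called 2, Dlk1 among them, beside 8.35%. Their median log2 fold change was 0.16, beside -0.04 over all tested genes, and 34 of the 49 were above 0, beside 47.8% of all tested genes. In 12 of the 49 all mandible libraries were above all femur libraries, beside 12.7% of tested genes, and in 1, the feedback target Nrarp, all were below, beside 11.5%. Nrarp would not have passed the filter on low counts by its mandible libraries alone, nor Dlk1 and Dtx1 by their femur libraries alone. These counts therefore do not cover the genes evenly. The smallest adjusted p was 0.083, for the coactivator gene Maml2, at 5.64 ± 0.836 CPM in the femur against 14.99 ± 1.54 CPM in the mandible (SD, n = 3). Maml2, Furin, which encodes the protease of the first receptor cut, Crebbp, a coactivator, and Numbl, a relative of the inhibitor Numb, are named because of their values.

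Genes of the highest level in each role follow, and none of them was called. Notch3, the receptor that is not among the 10 members, had 7.82 ± 3.75 CPM in the femur against 9.66 ± 4.79 CPM in the mandible, with overlap and a log2 fold change of 0.30 ± 0.56 (SE). Dlk1, a ligand-like gene, had 0, 0.921 and 0 CPM in S13, S15 and S18 and 5.60, 3.18 and 10.9 CPM in S16, S19 and S23, without overlap. Its log2 fold change of 4.37 ± 1.46 (SE) had an adjusted p of 0.13 by edgeR's quasi-likelihood test. All femur counts came from S15, and without that library the adjusted p was 0.0050 and the fitted fold change, against a femur at 0, depends on the prior count. Nrarp had 1.41 ± 0.970 CPM in the femur against 0.190 ± 0.329 CPM in the mandible, and Hes6 27.1 ± 2.85 and 20.9 ± 12.7 CPM. The lower mandible mean of Hes6 came from S23, at 6.41 CPM against 29.8 and 26.4 CPM in S16 and S19. Its log2 fold change of -0.38 was -0.0025 without S23.

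Among the genes that modify, activate and cut the receptors, Lfng had 28.6 ± 0.626 CPM in the femur against 26.9 ± 5.89 CPM in the mandible, and Pofut1, which adds O-fucose to Notch, 36.8 ± 9.37 and 40.6 ± 5.75 CPM. Mib1, which promotes ligand endocytosis, had 109 ± 6.43 and 154 ± 14.9 CPM without overlap and a log2 fold change of 0.50 ± 0.24 (SE), and Mib2 30.0 ± 9.24 and 24.5 ± 6.20 CPM. The protease Adam10 had 137 ± 42.1 and 139 ± 41.8 CPM.

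In the nucleus and in receptor turnover, the corepressor Ncor1 had a log2 fold change of 0.29 ± 0.26 (SE), and Itch and Dtx3l, of ubiquitin-dependent turnover, had 0.14 ± 0.24 and 0.31 ± 0.23. Rbpj, the DNA-binding partner, named after its values were seen, had 70.5 ± 7.51 CPM in the femur against 71.7 ± 12.2 CPM in the mandible.

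**Figure D4:**
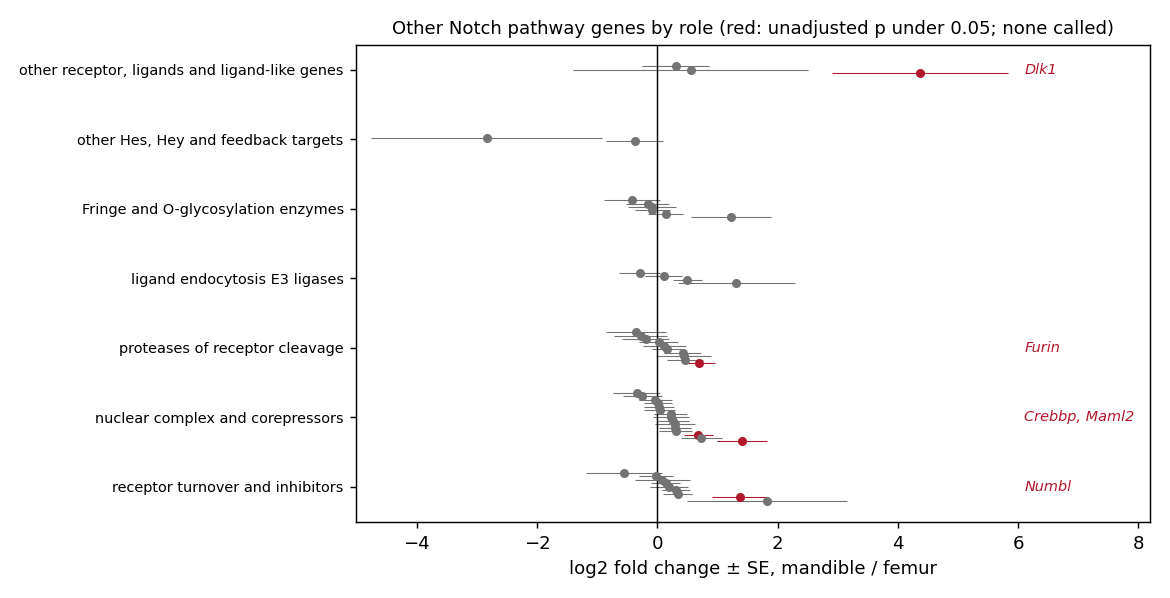
Log2 fold change with SE of the 49 tested genes of the wider pathway, grouped by role, with the genes of an unadjusted p under 0.05 in red. None was called, and the largest value is that of Dlk1 at 4.37.

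Markers of other cell types moved with the sites. The 12 monocyte markers gave 0 calls, and their summed level was 6822 to 13210 CPM in the femur against 6272 to 10423 CPM in the mandible. Of 12 osteoblast and mesenchymal markers 10 were called higher, and their sum was 369 to 469 CPM in the femur against 8810 to 15183 CPM in the mandible, with Col1a1, the main collagen of bone, at 32.2 ± 11.5 and 5801 ± 1160 CPM (SD, n = 3). The remaining 2 markers of that list, named after their values were seen, are known from marrow stromal cells and were not called. Cxcl12 had 243, 149 and 178 CPM in S13, S15 and S18 and 34.7, 57.7 and 121 CPM in S16, S19 and S23, lower in every mandible library, and Lepr had 26.7 ± 4.52 and 19.7 ± 10.5 CPM with a log2 fold change of -0.44. Of 10 mural markers, which mark pericytes and smooth muscle and include Notch3, 5 were called higher. The sum of the list was 9.37 to 26.7 CPM and 278 to 619 CPM. Most of the mandible sum was Des, at 348, 142 and 417 CPM in S16, S19 and S23. Rgs5, Cspg4, Kcnj8, Mcam and Notch3, named after their values were seen, were not called, and Mcam had a log2 fold change of -0.03. Of 8 epithelial markers 2 were called higher, at 10.7 to 11.9 CPM and 94.4 to 130 CPM.

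The endothelial list, whose cells are known to present Jagged and Delta-like ligands, had 14 genes, of which 10 were tested, 0 called higher and 1 called lower. Its sum was 80.1 to 99.6 CPM in the femur against 74.6 to 109 CPM in the mandible. Its markers Cldn5, with 4 counts in S19, and Sox17, with 11 counts in S15, had 0 counts in every other library and were not tested. Pecam1, the highest of the list, had 44.3 ± 5.90 CPM in the femur against 36.3 ± 7.16 CPM in the mandible (SD, n = 3). The remaining genes given here were named after their values were seen. Esam, called lower, had 9.25 ± 0.773 and 0.146 ± 0.128 CPM. Flt4, not called, had 3.20, 2.30 and 0 CPM in S13, S15 and S18 and 9.86, 10.2 and 23.6 CPM in S16, S19 and S23. Of 8 megakaryocyte markers 6 were called lower, at 779 to 1220 CPM and 152 to 211 CPM. The 7 markers of nonclassical monocytes held 2 calls, both higher in the mandible, at 621 to 905 CPM and 759 to 1413 CPM. The part of these cells in the values of Jag1, Jag2, Hey1 and the other members was not tested.

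**Figure D5:**
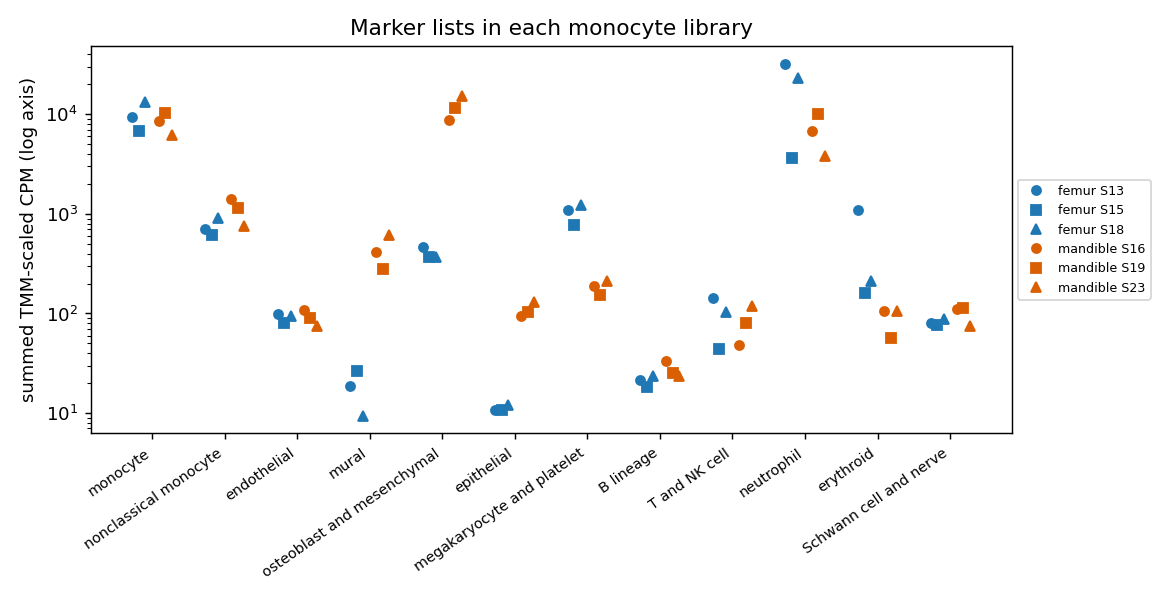
Summed TMM-scaled CPM on a log axis of each marker list in each of the 6 libraries. The osteoblast and mesenchymal sum runs from 369 to 469 CPM in femur libraries and from 8810 to 15183 CPM in mandible libraries, while the monocyte and endothelial sums overlap.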

How the data were processed

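Per the labels and the paper's methods, monocytes were enriched from marrow and paired-end reads were trimmed, mapped with HISAT2 2.1.0 to GRCm38 and counted with featureCounts. The authors deposited raw counts for each gene and library, without normalization; the featureCounts version and the use of the strand are not given in the sources used here. Of 52029 genes shared with GENCODE M21 (GRCm38), 2979 and no member had a table interval inside the M21 gene, so the build of the table's intervals is uncertain, and positions and transcript lengths come from M21 by Ensembl identifier.

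Counts were filtered (filterByExpr, minimum count 10, minimum total 15), TMM-scaled and tested across 18114 genes without covariates with edgeR 4.0.16 in R 4.3.3, with Benjamini-Hochberg adjustment. Single genes and make-up percentages were also compared by exact two-sided permutation tests (scipy 1.17.1), which cannot go below 0.1 with 3 against 3 libraries. CPM per kilobase used the mean length of coding transcripts; the longest coding transcript was added after the data were seen. Alternatives were DESeq2 1.42.0, limma-voom 3.58.1, RLE, no scaling, other filters, a loess correction for gene length (span 0.4) and each library left out. The tests were tried on simulated data.

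The members and lists were chosen with earlier results of these data known. All members are named, and of the wider pathway every called gene and the 2 of the highest mean CPM in each role; of the marker lists, markers at 0 or of the highest CPM. Not every gene that meets the rule is reported here. B lineage markers held 1 call (higher), neutrophil 1 and erythroid 3 (lower), and T and NK cell and Schwann cell markers 0.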

Additional observations from a re-analysis of the deposited data

How the results depend on the processing

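The number of members called was 2 under every alternative tool, scaling and filter except DESeq2 and no filter, with which it was 3, Hey1 being added, and it ranged from 1 to 4 when 1 library was left out: 1 without S13, S19 or S23, and 4 without S15, where Notch2 and Hey1 joined Jag1 and Jag2. Of the wider pathway, DESeq2 called 2 genes, no filter 1, and leaving out a library 0 to 2. Over all genes the calls numbered 938, against 1547 with DESeq2, 1590 without the filter and 434 to 1565 when a library was left out, the highest without S15. The length correction turned the sign of the log2 fold change for Notch1 (-0.53), Notch3 (-0.14), Pofut1 (-0.40), Mib1 (-0.10), Adam10 (-0.25), Ncor1 (-0.37), Itch (-0.39) and Dtx3l (-0.016), and it moved the median of all genes to -0.18. Lfng was 0.027 without scaling and Adam10 -0.028 without the filter. When a library was left out, the log2 fold change ran from -0.035 to 0.39 for Notch1, -1.77 to 1.19 for Notch4, -0.028 to 1.11 for Hes1, -0.22 to 0.61 for Notch3, -0.28 to 0.082 for Lfng, -0.053 to 0.24 for Pofut1 and -0.25 to 0.21 for Adam10. The cause was not tested. Depth limits Notch4, Dll4, Dll1 and Hey1, which had libraries with 0 to 3 counts. No paired analysis was possible because the labels of the groups share no replicate numbers.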
